A study of Mus musculus with 4 samples.

Results

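Testis RNA of *Ccnyl1*-/- and WT mice was examined here for a list of genes centred on the repackaging of the sperm genome. These were the protamines *Prm1*, *Prm2* and *Prm3*, the transition proteins *Tnp1* and *Tnp2*, and the testis linker histones *H1f6*, *H1f7* and *H1f9*. *Prm3* is listed by its name, though its product is not a DNA-packaging protamine. The members were the probe sets whose platform annotation gives exactly 1 gene symbol that is on this list, with the older symbol *Hils1* counted as *H1f9*. This gave 12 probe sets for 8 of 8 genes, among 45037 probe sets that are not Affymetrix controls and 18193 annotated genes. Testes of 2 *Ccnyl1* knockout mice (*Ccnyl1*-/-) were set against those of 2 WT mice, all C57BL/6 and 2 months old, with 1 array per mouse. The knockout carries a KO-first allele (tm1a, holding a LacZ cassette) made by the European Conditional Mouse Mutagenesis Program, in every tissue, so that no cell type is targeted alone. Mice of 1 genotype are biological replicates by the labels.

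During spermiogenesis the haploid spermatid exchanges most of its histones first for transition proteins and then for protamines, small basic proteins that condense the DNA of the sperm head. The testis linker histones mark successive steps of this path: H1T (*H1f6*) is made in spermatocytes, while H1T2 (*H1f7*) and HILS1 (*H1f9*) are proteins of spermatids. Messenger RNAs of protamines and transition proteins are made in round spermatids and stored for days before they are translated. The arrays therefore measured a stock of transcript and not the protein in the chromatin. Cyclin Y-like 1, the product of *Ccnyl1*, belongs to the cyclin Y family, whose members bind and activate the kinase CDK16, and the study asked whether its loss changed transcription in the testis.

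*Tnp2*, *Prm3*, *Prm2* and *Prm1* follow each other in this order on chromosome 16, with *Socs1* before and *Rmi2* after them among the protein-coding genes, whereas *Tnp1* lies on chromosome 1, the chromosome of *Ccnyl1*. The linker histone genes lie on chromosomes 13 (*H1f6*), 15 (*H1f7*) and 11 (*H1f9*). The promoters shown are those of the cluster and of *Tnp1*, the protamine and transition protein genes of the list. Each line holds the 120 bases before the RefSeq transcription start (GRCm38.p6), 5′ to 3′ on the gene's strand. Capitals mark matches to TGANGTCA on either strand, a form of the cAMP response element to which the spermatid activator CREM binds, and TATA within the last 50 bases.
Prm1, chr16:10796824-10796943, minus strand: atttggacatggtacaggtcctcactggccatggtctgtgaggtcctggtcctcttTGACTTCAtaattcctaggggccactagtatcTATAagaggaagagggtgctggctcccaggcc
Prm2, chr16:10792106-10792225, minus strand: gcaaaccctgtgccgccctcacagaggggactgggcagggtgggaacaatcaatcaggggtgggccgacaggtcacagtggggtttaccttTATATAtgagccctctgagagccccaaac
Prm3, chr16:10790915-10791034, minus strand: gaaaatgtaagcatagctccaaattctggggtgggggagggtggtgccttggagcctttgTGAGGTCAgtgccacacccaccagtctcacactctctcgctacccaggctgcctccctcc
Tnp2, chr16:10788656-10788775, minus strand: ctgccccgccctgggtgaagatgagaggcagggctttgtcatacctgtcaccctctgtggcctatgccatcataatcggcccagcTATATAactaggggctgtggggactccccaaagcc
Tnp1, chr1:73015900-73016019, minus strand: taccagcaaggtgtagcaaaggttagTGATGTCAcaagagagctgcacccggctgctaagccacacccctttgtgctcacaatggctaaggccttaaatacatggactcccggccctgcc

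The element TGANGTCA began 64 bases before the start in *Prm1*, 60 in *Prm3* and 94 in *Tnp1*, and it was not among the 250 bases before the start of the other 5 genes. Of 32851 promoters in the RefSeq table, 7.49% held it within these 250 bases on either strand. TATA stood 32 bases before the start in *Prm1*, 29 in *Prm2*, 35 in *Tnp2* and 43 in *H1f6*, and 9.08% of all promoters held it in their last 50 bases. The motifs do not overlap each other in these windows. These matches describe the letters only.

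The *Ccnyl1* probe set had signals of 921 and 969 in *Ccnyl1*-/- testes, against 2256 and 2425 in WT testes, so that 40.4% of the WT signal was left in mice with the KO-first allele. The position of its probes relative to the inserted cassette was not known, so whether an intact transcript remained was not measured. Each array had a trimmed mean of 500.0, and the 3′ to 5′ signal ratio of *Actb* was 1.74 and 1.83 in *Ccnyl1*-/- mice and 1.78 and 1.87 in WT mice. Across the 32438 probe sets whose mean signal reached 32, log2 signals of any pair of arrays correlated at 0.977 to 0.980. None of the measured genes in 16 lists of chromatin genes and cell type markers passed the test given next.

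None of the 12 probe sets differed between the genotypes past the test, an adjusted p under 0.05 from limma over all 32438 probe sets. Among all of them, 0 probe sets (0%) were called higher in *Ccnyl1*-/- testes and 4 (0.0123%) lower. At an unadjusted p under 0.05 there were 3 of the 12, against 6.05% of all probe sets and 15.7% of the 1621 bright ones, those whose mean signal reached 5000. Signals of the genotypes stood apart without overlap at 5 of the 12, where *Ccnyl1*-/- was higher at 2 and lower at 3. Over all probe sets they stood apart at 35.9% (20.6% higher and 15.3% lower), and over the bright ones at 48.0% (12.1% higher and 35.9% lower), so the members' count lies near the background. *Ccnyl1*-/- over WT gave a positive log2 fold change at 4 members and a negative one at 8, where 45.2% of all probe sets and 67.6% of the bright ones were negative. On the brightest probe set of each gene, 2 of 8 genes were positive and 6 negative with a median of -0.051 (-0.017 without *Ccnyl1*-/- replicate 2 and -0.085 without WT replicate 1), beside a median of 0.022 over all probe sets and -0.036 over the bright ones. A change of 2-fold in either direction lay outside the 95% interval for 11 of the 12, the exception being the dim *H1f6*, and for 75.8% of all and 100% of the bright probe sets.

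Whether a gene taken here as a marker is confined to the cell type of its list was not tested. The list for elongating spermatids, the cells in which protamines act, left out chromatin genes. It had 3 genes with a positive and 8 with a negative log2 fold change of *Ccnyl1*-/- over WT (median -0.098), between *Fscn3* (-0.21) and *Smcp* (0.18). The summed signal of these genes ran from 211403 to 216591 in *Ccnyl1*-/- and from 218266 to 218593 in WT testes, without overlap. All 11 were bright, a set in which 67.6% of probe sets were negative. By gene, 1 stood apart higher and 6 lower, where 12.1% and 35.9% of the bright probe sets did. Summed markers of spermatocytes were higher in *Ccnyl1*-/- (47597 to 47669) than in WT testes (45660 to 47439), without overlap. Those of spermatogonia were too (5989 to 5991 against 5361 to 5719). Sums weigh the brightest genes most, as *Dazl* among spermatogonia (4165 and 4363 against 3945 and 3743). A gap between sums therefore need not hold for most genes of a list. By gene, 5 spermatocyte markers were positive and 4 negative (median 0.0058). Of the spermatogonia markers, 6 were positive and 3 negative (median 0.036). On the brightest probe set of each gene, spermatocyte markers ran from *Dmc1* (-0.64, with 0.061 on its other probe set) to *Spo11* (0.23). Spermatogonia markers ran from *Ret* (-0.47) to *Lin28a* (0.39), both dim at mean signals of 37.2 and 57.7. Leydig cell markers were positive in all 5 genes measured of 8 (median 0.43), from *Nr5a1* (0.0033) to *Star* (0.57), and 1 stood apart higher. Their summed signals, 4591 to 8756 in *Ccnyl1*-/- and 3301 to 6308 in WT testes, overlapped. *Cyp17a1*, the brightest of them, differed by 1.17 between the *Ccnyl1*-/- mice and by 1.03 between the WT mice on the log2 scale. Its log2 fold change between the genotypes was 0.51. Summed markers of round spermatids, Sertoli cells, epididymis, and the list for peritubular cells, macrophages, endothelium and blood overlapped between the genotypes as well. Their farthest genes were *Spag6* (0.18), *Amh* (-0.82), *Lcn8* (1.06) and *Des* (0.87, with 0.20 on its other probe set). *Amh* and *Lcn8*, at mean signals of 37.5 and 37.7, lay just above the minimum of 32. No tested marker was at 0. Of 69 markers with a probe set, 3 lay under the minimum signal of 32 (*Hba-a1* at a mean of 16.4, *Lcn5* at 20.1 and *Adam7* at 7.02) and were not tested. The part of these cell types in the members' values was not tested, and in whole testis fewer cells of a type and less RNA per cell cannot be told apart.

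**Figure D1:**
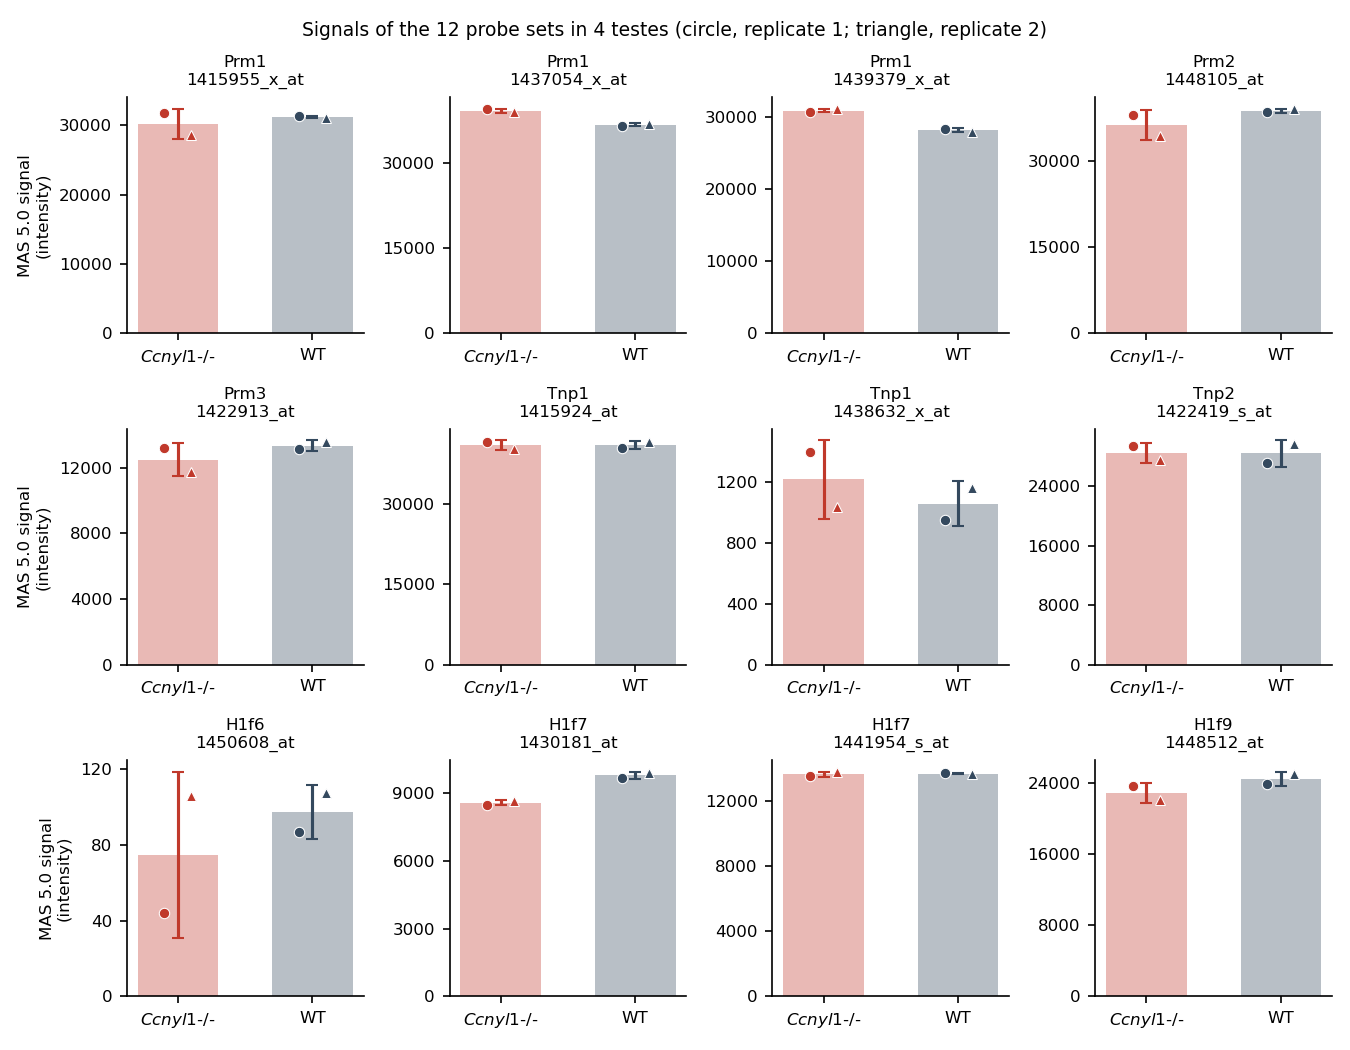
MAS 5.0 signals (intensity, linear axis from 0) of the 12 probe sets, with bars for the mean of 2 *Ccnyl1*-/- mice on the left and 2 WT mice on the right, 1 SD as error bar and each mouse as a point. Bars of the 2 genotypes are nearly level at most probe sets, and the mice lie apart at 5 of them, among them *H1f7* probe set 1430181_at (8484 and 8657 against 9655 and 9892).

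Protamine 1, the protamine common to mammals, is read by 3 probe sets, all with the suffix _x_at, which Affymetrix gives to sets with probes that can match other transcripts. The brightest, 1437054_x_at, had signals of 39454 and 38943 in *Ccnyl1*-/- testes, against 36539 and 36889 in WT testes. Both *Ccnyl1*-/- mice lay above both WT mice, and the ratio of the means was 1.07. Its log2 fold change was 0.094 with a standard error of 0.032 and a 95% interval from 0.021 to 0.17 (adjusted p = 0.771 from limma).
Probe set 1439379_x_at of *Prm1* likewise had 30742 and 31110 in *Ccnyl1*-/- testes, against 28373 and 27991 in WT testes. Its log2 fold change of 0.13 (interval from 0.054 to 0.21) was again larger than the differences between mice of a genotype and did not pass the test (adjusted p = 0.647 from limma).
The third, 1415955_x_at, had 31754 and 28628 in *Ccnyl1*-/- testes, against 31339 and 31088 in WT testes, so that the genotypes overlapped. With a log2 fold change of -0.050, it had an interval from -0.16 to 0.064 (adjusted p = 0.901 from limma), and the value turned to 0.025 without *Ccnyl1*-/- replicate 2. The probe sets of *Prm1* thus did not share a direction, and which transcripts each may read besides *Prm1* was not known.

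Protamine 2, which is made as a precursor and cleaved on the DNA and whose loss makes male mice sterile, had signals of 38015 and 34328 in *Ccnyl1*-/- testes, against 38417 and 38969 in WT testes. Both *Ccnyl1*-/- mice lay below both WT mice, but replicate 1 was close to WT and replicate 2 was not. Limma gave a log2 fold change of -0.099 with a standard error of 0.048 and an interval from -0.21 to 0.012 (adjusted p = 0.83). Without *Ccnyl1*-/- replicate 2 it was -0.026, and without *Ccnyl1*-/- replicate 1 it was -0.17.
*Prm3*, which encodes an acidic protein of the same cluster that is not a DNA-packaging protamine, had 13193 and 11757 in *Ccnyl1*-/- testes, against 13106 and 13573 in WT testes. The genotypes overlapped, since *Ccnyl1*-/- replicate 1 stood between the WT mice. The difference on the log2 scale was -0.099 (interval from -0.24 to 0.040, adjusted p = 0.855 from limma), and it was -0.016 without *Ccnyl1*-/- replicate 2.

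The levels of different probe sets cannot be compared, but the difference of their log2 signals can be followed from mouse to mouse. For the brightest probe sets, log2 *Prm1* minus log2 *Prm2* was 0.054 and 0.18 in *Ccnyl1*-/- mice and -0.072 and -0.079 in WT mice. The genotypes did not overlap, and their means, 0.12 ± 0.091 in *Ccnyl1*-/- and -0.076 ± 0.0048 in WT (SD, n = 2 each), differed by 0.19. This follows from the values above and is no further result. This *Prm1* probe set stood apart higher (0.094) and *Prm2* apart lower (-0.099), so their difference had to stand apart. The same holds for *Prm1* 1439379_x_at, which also stood apart higher. The difference was described without a test, and the smallest exact two-sided permutation p for 2 mice against 2 is 0.333. Its size depended on the probe set of *Prm1*: *Ccnyl1*-/- mice lay above WT mice with each of the 3, but by 0.049 with 1415955_x_at and by 0.23 with 1439379_x_at. It was 0.16 with the mean of the 3. All 3 subtract the same *Prm2* values, so they are not independent of each other. Probe set 1415955_x_at by itself had a log2 fold change of -0.050. For the transition proteins, log2 *Tnp1* minus log2 *Tnp2* was 0.50 and 0.54 in *Ccnyl1*-/- mice and 0.57 and 0.48 in WT mice, and these overlapped (difference of the means -0.0052). With all probe sets of *Tnp1* it was 0.091.

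**Figure D2:**
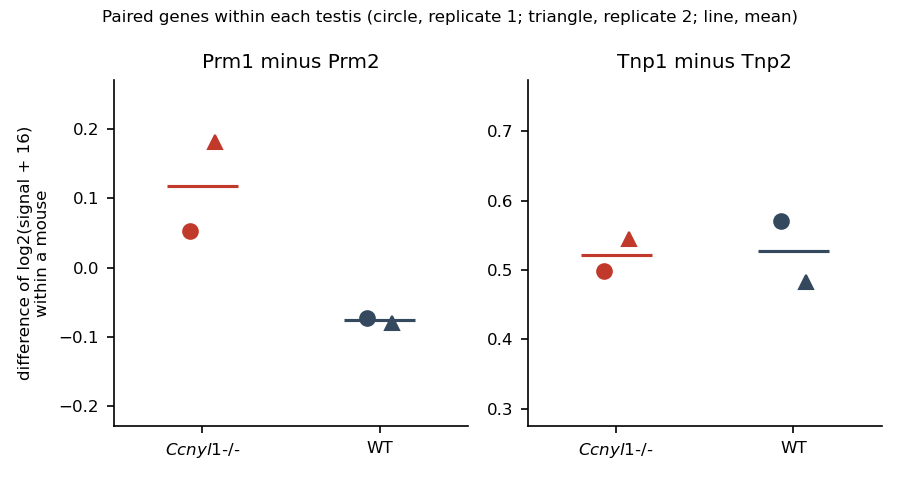
Difference of log2(signal + 16) between *Prm1* and *Prm2* (left) and between *Tnp1* and *Tnp2* (right) in each testis, on the brightest probe set of each gene, with *Ccnyl1*-/- mice left of WT mice and a line for the mean of 2 mice. The first difference is higher in both *Ccnyl1*-/- mice than in both WT mice, while the second overlaps between the genotypes. The first had to stand apart, as this *Prm1* probe set stood apart higher and *Prm2* apart lower.

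Transition protein 1, the more abundant of the intermediates between histones and protamines in mice, had on probe set 1415924_at signals of 41515 and 40188 in *Ccnyl1*-/- testes, against 40328 and 41476 in WT testes. Both WT mice lay between the *Ccnyl1*-/- mice. The log2 fold change was -0.0018 with a standard error of 0.035 and an interval from -0.081 to 0.077 (adjusted p = 0.998 from limma). The highest signal of any probe set was 40273 and 42933 on the *Ccnyl1*-/- arrays and 41476 and 42064 on the WT arrays, so that *Tnp1* lies at the upper end of the scale. The brightest *Prm1* probe set and *Prm2*, at mean signals of 37956.5 and 37432.5, lay not far below. Whether signals this high were compressed was not tested, which also limits the *Prm1* minus *Prm2* difference and the intervals of these probe sets.
The other probe set of *Tnp1*, 1438632_x_at, was far dimmer, with 1401 and 1036 in *Ccnyl1*-/- testes, against 955 and 1164 in WT testes. These overlapped, and the log2 fold change of 0.19 had an interval from -0.17 to 0.55 (adjusted p = 0.885 from limma).
*Tnp2*, whose product helps to condense spermatid chromatin after that of *Tnp1* appears, had 29368 and 27555 in *Ccnyl1*-/- testes, against 27156 and 29663 in WT testes. The *Ccnyl1*-/- mice lay between the WT mice, and the log2 fold change was 0.0033 with an interval from -0.11 to 0.12 (adjusted p = 0.998 from limma).

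**Figure D3:**
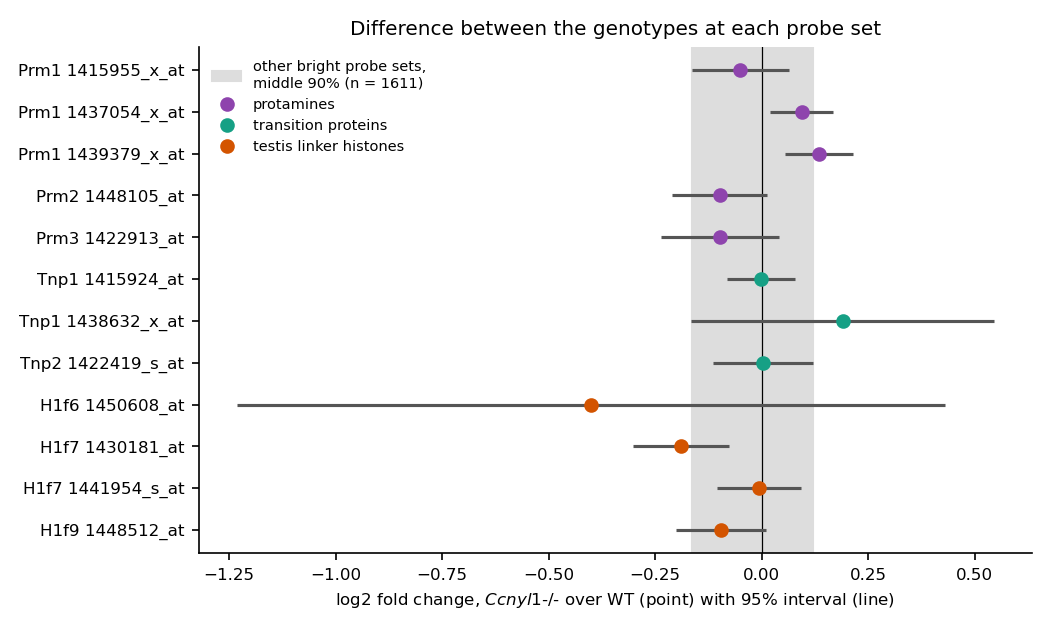
Log2 fold change, *Ccnyl1*-/- over WT, at each of the 12 probe sets (point) with its 95% interval from limma (line), coloured by family. The grey band spans the middle 90% of the 1611 other probe sets whose mean signal reached 5000, from -0.16 to 0.12, and *H1f7* 1430181_at (-0.19) and *Prm1* 1439379_x_at (0.13) are the bright member probe sets outside it.

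Of the linker histones, H1T2, which caps a pole of the spermatid nucleus and is needed for normal condensation in mice, showed the largest difference among the bright probe sets. Probe set 1430181_at of *H1f7* had signals of 8484 and 8657 in *Ccnyl1*-/- testes, against 9655 and 9892 in WT testes. Both *Ccnyl1*-/- mice were lower, at 87.7% of the WT mean, with little spread in either genotype. On the log2 scale the change was -0.19 with a standard error of 0.049 and an interval from -0.30 to -0.076 (unadjusted p = 0.00453 and adjusted p = 0.647 from limma), and it ran from -0.21 to -0.17 when 1 mouse was left out.
The brighter probe set of *H1f7*, 1441954_s_at, did not follow it. Its signals were 13504 and 13750 in *Ccnyl1*-/- testes, against 13708 and 13651 in WT testes. They overlapped, with a log2 fold change of -0.0056 and an interval from -0.10 to 0.093 (adjusted p = 0.994 from limma), which does not reach the value of the first probe set.
HILS1, the linker histone-like protein of elongating spermatids, was read by 1 probe set of *H1f9*, with 23619 and 22075 in *Ccnyl1*-/- testes, against 23838 and 24983 in WT testes. Both *Ccnyl1*-/- mice lay below both WT mice, replicate 1 by little. The log2 difference was -0.096 (standard error 0.047, interval from -0.20 to 0.011, adjusted p = 0.83 from limma), and it was -0.047 without *Ccnyl1*-/- replicate 2.
*H1f6*, the linker histone of spermatocytes, was dim, with signals of 43.8 and 106 in *Ccnyl1*-/- testes, against 87.1 and 107 in WT testes. The genotypes overlapped, and 1 *Ccnyl1*-/- mouse stood apart from the other 3 mice. Its log2 fold change of -0.40 had an interval from -1.23 to 0.43 and turned to 0.11 without that mouse, so that a change of this gene was not measurable on these arrays.

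By family, the median of the protamines was -0.099, and it was -0.016 without *Ccnyl1*-/- replicate 2, both the values of *Prm3*. That of the transition proteins was 0.00074 and ran from -0.041 to 0.043 when 1 mouse was left out. The linker histones had -0.096, which turned to 0.0074 without *Ccnyl1*-/- replicate 1 and was -0.047 without *Ccnyl1*-/- replicate 2. Differences between mice of 1 genotype were of the same size as those between genotypes. *Ccnyl1*-/- replicate 1 was above replicate 2 at 8 of the 12 probe sets, by 0.15 for *Prm2* and *Prm1* 1415955_x_at and 0.17 for *Prm3* on the log2 scale, while WT replicate 1 was above WT replicate 2 at 3 of the 12. The difference between the genotypes was larger than both differences between mice of a genotype at 3 probe sets, *Prm1* 1437054_x_at and 1439379_x_at and *H1f7* 1430181_at, against 23.5% of all probe sets and 34.1% of the bright ones. The same 3 have an interval that leaves out 0, an interval that is not adjusted for the number of probe sets tested.

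**Figure D4:**
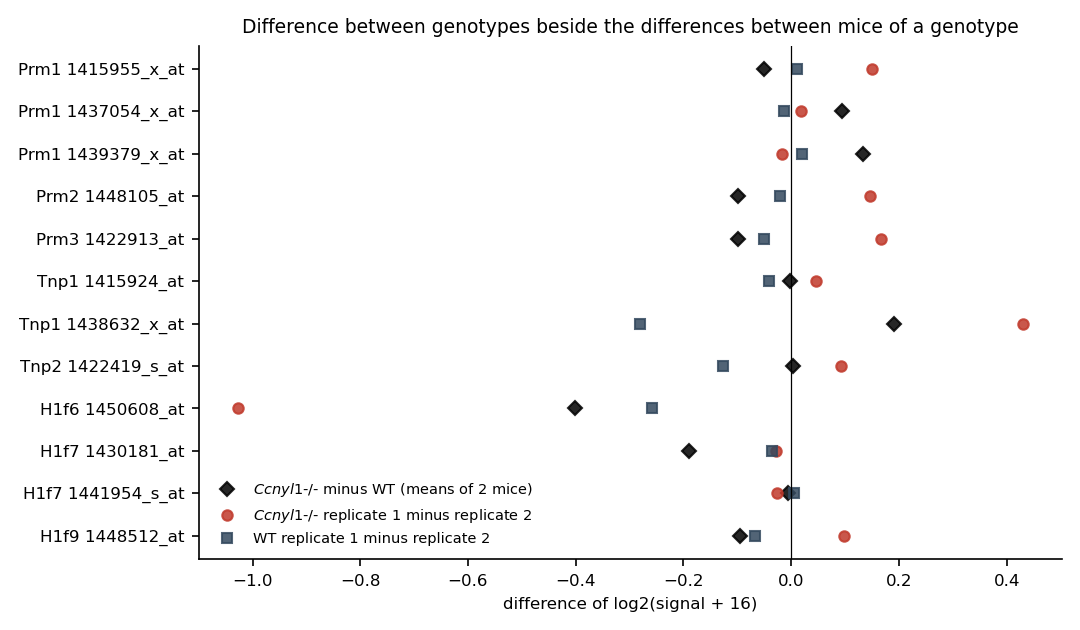
Differences of log2(signal + 16) at the 12 probe sets: *Ccnyl1*-/- minus WT (diamonds, means of 2 mice each), *Ccnyl1*-/- replicate 1 minus replicate 2 (circles) and WT replicate 1 minus replicate 2 (squares). The diamond is farthest from 0 at 3 probe sets, and at *Tnp1* 1438632_x_at and *H1f6* the mice of a genotype differ most.

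Other chromatin genes of the spermatid were compared as lists, on the brightest probe set of each gene. Among 7 measured core histone variants of 13, 4 were positive and 3 negative and none passed. Their median of 0.021 turned to -0.031 without WT replicate 1 and to -0.013 without *Ccnyl1*-/- replicate 1. *H3f3b* (0.25) and *H3f3a* (-0.24), which encode the replacement histone H3.3, differed most, at mean signals of 142 and 211. Each had 1 tested probe set, and their intervals, from -0.20 to 0.69 and from -0.71 to 0.24, included 0. The testis histones *H2al2a* and *H2bl1*, named after their values were seen, had bright signals. *H2al2a*, whose product eases the loading of transition proteins in mouse spermatids, had 13734 and 13612 in *Ccnyl1*-/- testes, against 12867 and 14018 in WT testes, a log2 fold change of 0.026. *H2bl1* had 9839 and 10295 in *Ccnyl1*-/- testes, against 10744 and 11401 in WT testes. Both *Ccnyl1*-/- mice were lower for *H2bl1*, and the log2 difference of -0.14 did not pass (limma, adjusted p = 0.797). Of 8 other linker histones only 2 were measured, *H1f10* (0.29) and *H1f2*, whose 3 probe sets ran from -1.8e-04 on the brightest to 0.39, and neither passed.

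Of 15 genes of histone removal and protamine assembly, 9 were positive and 6 negative, and none passed. Their median of 0.029 turned to -0.016 without *Ccnyl1*-/- replicate 2 and to -8.0e-04 without WT replicate 1. *Rnf8*, a ubiquitin ligase reported to act in histone removal in mice, had 428 and 452 in *Ccnyl1*-/- testes, against 556 and 535 in WT testes. Both *Ccnyl1*-/- mice were lower, and the difference was -0.30 on the log2 scale (limma, adjusted p = 0.81). *Top2b*, a topoisomerase of elongating spermatids, had the largest positive value (0.23). Of 18 genes that control the transcription or the stored messages of protamines, 7 were positive and 11 negative, with a median of -0.011 that turned to 0.0089 without *Ccnyl1*-/- replicate 2. The farthest were *Sox30*, a transcription factor of spermatids (0.16), and *Paip2*, a repressor of poly(A)-binding protein (-0.13). The 6 genes that flank the protamine cluster on chromosome 16 had a median of -0.0081 (0.032 without *Ccnyl1*-/- replicate 2), and none passed. They ran from *Clec16a* (-0.20) to *Socs1* (0.21), which was dim at a mean signal of 76.8 with an interval from -0.43 to 0.86.

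**Figure D5:**
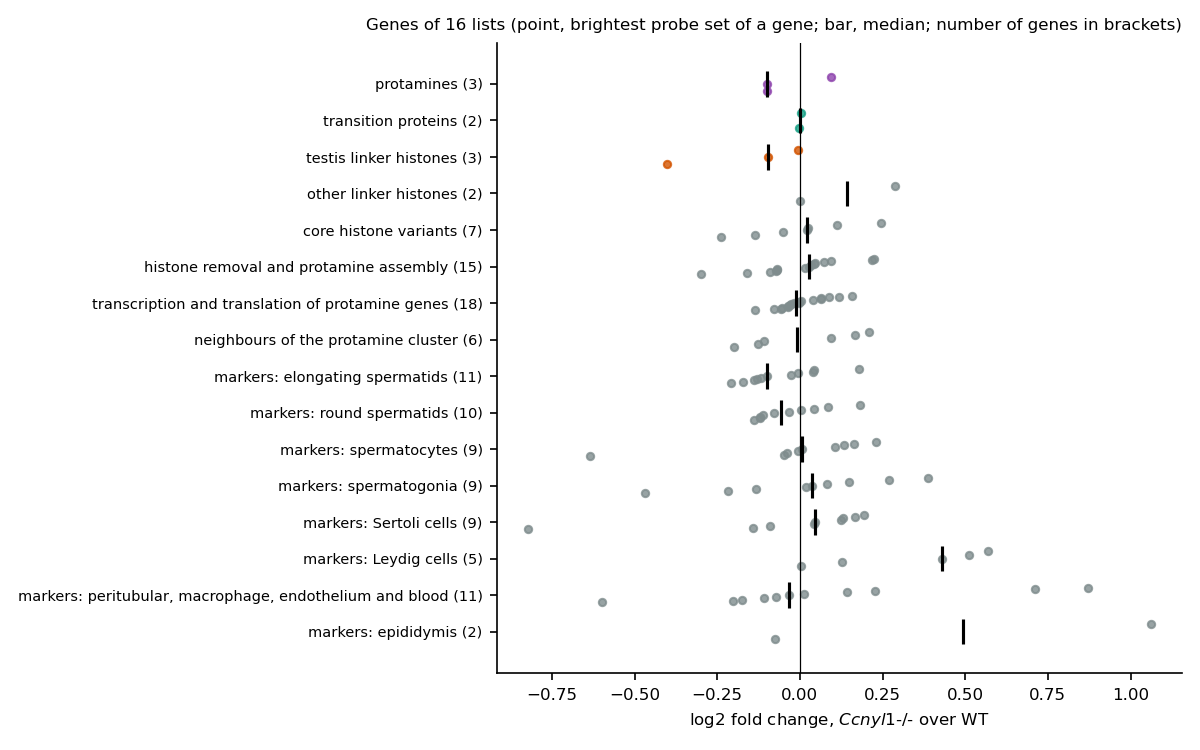
Log2 fold change, *Ccnyl1*-/- over WT, of each measured gene of 16 lists (point, brightest probe set), with a bar for the median and the number of genes in brackets. Protamines, transition proteins and testis linker histones have medians of -0.099, 0.00074 and -0.096 with all 4 mice, and the values farthest from 0 belong to markers of other cells.

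The mean of the centred log2 signals of *Prm1*, *Prm2*, *Tnp1* and *Tnp2* was 0.038 and -0.038 in *Ccnyl1*-/- mice and -0.025 and 0.026 in WT mice. In this mean the opposite genotype differences of *Prm1* (0.094) and *Prm2* (-0.099) nearly cancel, so it is not the pattern of either protamine. Among 1380 probe sets with 1 gene and a mean signal of at least 5000, the genes nearest to this pattern by Euclidean distance over the 4 arrays were *Ttll8*, a tubulin ligase gene (distance 0.0144), *Cisd1*, which encodes an iron-sulfur protein of mitochondria (0.0146), and *Sycp2*, a gene of the synaptonemal complex (0.0185). With 4 arrays, such likeness is a description of these mice.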

How the data were processed

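Testis RNA of 2 *Ccnyl1*-/- and 2 WT mice was hybridised to 1 Affymetrix mouse array each. The values deposited by the authors are MAS 5.0 signals, an intensity on a linear scale per probe set, computed array by array with global scaling. Probe effects remain, so levels of different probe sets are not comparable, and dim signals spread widely on a log scale. The methods state a target of 100, but the trimmed mean of each deposited array was 500.0.

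The members and gene lists were chosen with earlier results of these data known. Log2(signal + 16) was fitted in R 4.3.3 with limma 3.58.1 (lmFit, eBayes with a trend of the variance), genotype alone in the design, over the 32438 probe sets with a mean signal of at least 32. P-values were adjusted by Benjamini-Hochberg over all of them. Log2 fold changes understate changes of dim probe sets. The number of arrays limits the precision. The fit was tested on simulated data. The named genes were all probe sets of the members, the genes with the largest positive and negative value of each other list (the larger alone for some marker lists), and the 3 nearest profiles. Of 145 list symbols, 127 had a probe set with that 1 gene. Promoters came from RefSeq (GRCm38.p6) for 8 of 8 genes. Alternatives were other offsets, minima, scalings and variance models, the methods' t-test, the replicate number as a block, the suffixed probe sets left out, and each mouse left out, with each *Prm1* probe set in turn added after the values were seen.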

Additional observations from a re-analysis of the deposited data

How the results depend on the processing

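No member probe set passed the test under any of the 15 alternatives in which it could be fitted. *H1f6* had 13, as it fell under a minimum of 100 and under the minimum after rescaling. Of 178 values, 167 kept their sign. Other minima, other variance models, the methods' t-test and the replicate block leave a log2 fold change as it is. The count of signs thus includes many values that could not turn. With quantile normalization *Tnp1* 1415924_at had 0.0055 and *H1f7* 1441954_s_at 0.026, and with arrays scaled to one median *Tnp2* had -0.0743. Leaving out 1 mouse gave -0.125 to 0.0247 for *Prm1* 1415955_x_at, -0.0253 to 0.0216 for *Tnp1* 1415924_at, -0.0249 to 0.405 for *Tnp1* 1438632_x_at, -0.0603 to 0.067 for *Tnp2*, -0.914 to 0.112 for *H1f6* and -0.0186 to 0.0074 for *H1f7* 1441954_s_at. The median over the 8 genes was -0.0848 to -0.0172 with 1 mouse left out, -0.0237 with quantile normalization, -0.128 with arrays scaled to one median and -0.0966 when all probe sets of each gene were averaged. It was -0.0056 with a minimum of 100 or after rescaling to a trimmed mean of 100, where *H1f6* is not tested. Averaging a gene's probe sets moved the *Tnp1* minus *Tnp2* difference to 0.0908, and *Prm1* 1415955_x_at, an alternative chosen after seeing the data, gave 0.0491 for *Prm1* minus *Prm2*. Scaled to one median, the medians of the core histone variants and of the genes of histone removal turned to -0.0565 and -0.0489, and that of the transition proteins to -0.0769. The core histone variants had -0.0149 after rescaling, and the genes that control protamine messages 0.0163 with quantile normalization.

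Over all probe sets, 0 were called higher and 4 lower. With arrays scaled to one median 7 were lower, and with eBayes without the trend or the methods' t-test 0 were lower (1906 and 1900 at an unadjusted p under 0.05). Leaving out 1 mouse gave 2 to 37 higher and 8 to 28 lower. Nothing in the labels pairs mice of the same replicate number. The replicate 1 minus replicate 2 differences of the genotypes correlated at 0.014 over all tested probe sets and at 0.25 over the 1621 bright ones. With this replicate block 4 were called higher and 10 lower, and no member probe set was called. For dim probe sets such as *H1f6*, signal near the minimum limits what could be seen.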
